A study of Mus musculus with 24 samples.

Results

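The genes described here are the Egr and Nr4a families of immediate early genes with a corepressor and an effector that belong to the same response: Egr1, Egr2, Egr3, Egr4, Nab2, Nr4a1, Nr4a2, Nr4a3 and Arc. They were chosen by name, 9 genes of the 20284 named genes on the array, with earlier results of these data known. Total RNA of 24 whole kidneys of age-matched young male mice had been labelled with Cy3 and hybridised to 1-colour Agilent arrays. The control group held 6 kidneys of mgb+/+ mice, and 18 kidneys came from mgb-/- mice, of which 7 were graded mild, 5 moderate and 6 severe by the degree of hydronephrosis on ultrasound. The megabladder (mgb) mouse is a germline mutant whose bladder fails to form normal smooth muscle, so the kidneys drain into a functionally obstructed bladder from development onward. No group had received a treatment. The tissue was the whole organ, snap frozen, so tubules, vessels, urothelium and any attached tissue were read together.

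Immediate early genes are transcribed within minutes of a stimulus from promoters that need no new protein, mainly through serum response factor with its ternary complex partners at CArG boxes and through CREB at cyclic AMP response elements (CRE). Egr proteins are zinc finger transcription factors of GC-rich sites and Nab2 is their corepressor, itself an Egr target that closes a negative feedback loop. Nr4a proteins are orphan nuclear receptors whose activity follows their amount because no ligand is required, and Arc encodes a cytoskeleton-associated protein best known from activated synapses. In kidney, Egr1 is known as an early transcript of tubular injury and stretch.

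RefSeq promoter windows of GRCm38.p6, the 250 bases before an annotated start, were searched on both strands for 6 of the 9 genes. Egr3 and Arc had no window, and Egr1 was not searched. The windows are shown because the Nr4a genes have 4 matches each to TGACG, the core letters of the CRE. Of 32851 such windows over all genes, 17.77% held TGACG or its complement at least once and 0.137% held it 4 times or more. The cut at 4 is the count of the Nr4a windows themselves, and windows were not matched for base composition, so this share is no test. The Nr4a1 window is chr15:101266596-101266845 on the + strand, Nr4a2 chr2:57124004-57124253 on the - strand, Nr4a3 chr4:48045055-48045304 on the + strand and Nab2 chr10:127666704-127666953 on the - strand. Capitals mark TGACG on either strand, and in Nr4a1 also 1 Egr site, GCGGGGGCG read on the opposite strand, which 2.572% of windows held. The Egr2 stretch is the 30 bases chr10:67537789-67537818 on the + strand, with a CArG box and a TGACG match in capitals. Egr2 had 5 windows, of which the earliest held no match and another only a CArG box of other letters. A CArG box was held by 1.467% of windows. The windows of Nr4a1, Nr4a2, Nr4a3, Egr4 and Nab2 held no CArG box.
Nr4a1: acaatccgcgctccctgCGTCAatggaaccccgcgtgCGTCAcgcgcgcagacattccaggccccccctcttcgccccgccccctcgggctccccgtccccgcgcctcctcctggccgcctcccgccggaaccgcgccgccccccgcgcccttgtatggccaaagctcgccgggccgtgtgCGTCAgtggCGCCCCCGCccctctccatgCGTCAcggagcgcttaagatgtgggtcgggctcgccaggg
Nr4a2: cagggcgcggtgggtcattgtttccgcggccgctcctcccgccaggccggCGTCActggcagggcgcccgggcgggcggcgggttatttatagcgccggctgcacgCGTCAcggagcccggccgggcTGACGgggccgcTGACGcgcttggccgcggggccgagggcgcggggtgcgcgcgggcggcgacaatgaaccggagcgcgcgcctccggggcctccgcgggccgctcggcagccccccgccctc
Nr4a3: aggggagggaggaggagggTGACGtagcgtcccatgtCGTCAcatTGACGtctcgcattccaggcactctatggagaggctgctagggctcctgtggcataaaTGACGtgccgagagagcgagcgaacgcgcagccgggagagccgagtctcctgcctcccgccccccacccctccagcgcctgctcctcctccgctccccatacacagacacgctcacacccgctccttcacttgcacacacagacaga
Nab2: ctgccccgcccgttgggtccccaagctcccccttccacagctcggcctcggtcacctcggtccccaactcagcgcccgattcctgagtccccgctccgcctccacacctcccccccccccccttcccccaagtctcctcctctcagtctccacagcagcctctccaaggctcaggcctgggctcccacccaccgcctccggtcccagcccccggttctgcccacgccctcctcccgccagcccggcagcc
Egr2: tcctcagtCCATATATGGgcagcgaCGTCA
Egr4 had 2 TGACG matches, and Nab2 had no match to any motif searched. The whole CRE (TGACGTCA), the site of Nr4a monomers (AAAGGTCA), the AP-1 site TGACTCA, the Ets site CCGGAAGT and the Egr site GCGTGGGCG were not in any window searched for these 6 genes. The TGACG letters lie inside TGACGTCA, so both searches overlap. A match is a description of letters in the window and not a site shown to be bound.

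Levels are given as the log2 processed signal minus the 75th percentile of the array, so 0 is the 75th percentile, and the level of one probe is not comparable with that of another. The call of a change needed a fold of at least 2 and, in limma, an adjusted p under 0.05 (Benjamini-Hochberg over all 27959 features tested). Of the 9 genes, 6 passed the filter on dim probes, which required 5 or more arrays well above background. Egr3 was well above background on 1 of 24 arrays, moderate replicate 3, and Egr4 and Nr4a3 on 0 of 24, and no fold is given for them. Spots well above background made up 56.6% to 71.5% of each array, and no spot was saturated. The array of severe replicate 4 had the lowest share, 56.6%. It also had 660 spots flagged as outliers, against 102 to 261 on the other arrays. Each of 3 slides held 2 control and 6 mgb-/- kidneys. Markers of nephron and collecting duct, 5 of 5, were well above background on every array. Summed adrenal markers, 5 genes, were 194 in mild replicate 4 and 185 in moderate replicate 1, in linear units of the 75th percentile. Controls lay between 0.14 and 0.37 and severe kidneys between 0.22 and 0.65. Mild replicates 2, 5, 6 and 7 read 3.57, 1.76, 4.14 and 0.91, and moderate replicate 3 read 3.53. The remaining mild and moderate kidneys lay within the control range. Results that change without mild replicate 4 and moderate replicate 1 are given both ways. Leaving out these 2 kidneys does not remove the lower adrenal signal of the others. The labels do not tie kidneys to mice, so 2 kidneys may share an animal, and p-values measure only the spread between these kidneys. In whole kidney RNA, a change in the number of cells that express a gene and a change in RNA per cell cannot be told apart.

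Egr1, Egr2, Nr4a1, Nr4a2 and Arc rose in mgb-/- kidneys, from 2.79-fold for Arc to 17.7-fold for Egr2. The log2 change of Egr2, 4.15, fell to a log2 change of 2.27 with normexp, another background correction, and of 2.80 in the authors' normalized table. Under both, Egr1 had the larger log2 change, at 3.48 and 3.56. Called higher were 5 of the 6 genes tested, where 1.82% of all features were called higher and 1.27% lower. Nab2 differed by 1.36-fold and was not called. In Egr1, Egr2 and Nr4a1 every mgb-/- kidney lay above every control kidney, which held for 0.329% of all features. The 6 tested genes had a median log2 change of 2.49 against 0.01 over all features. Scaling on the array median instead lowered that 0.01 to -0.15 and turned the calls over all features from 509 higher and 354 lower into 344 and 529, while the same 5 genes were called higher.

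**Figure D1:**
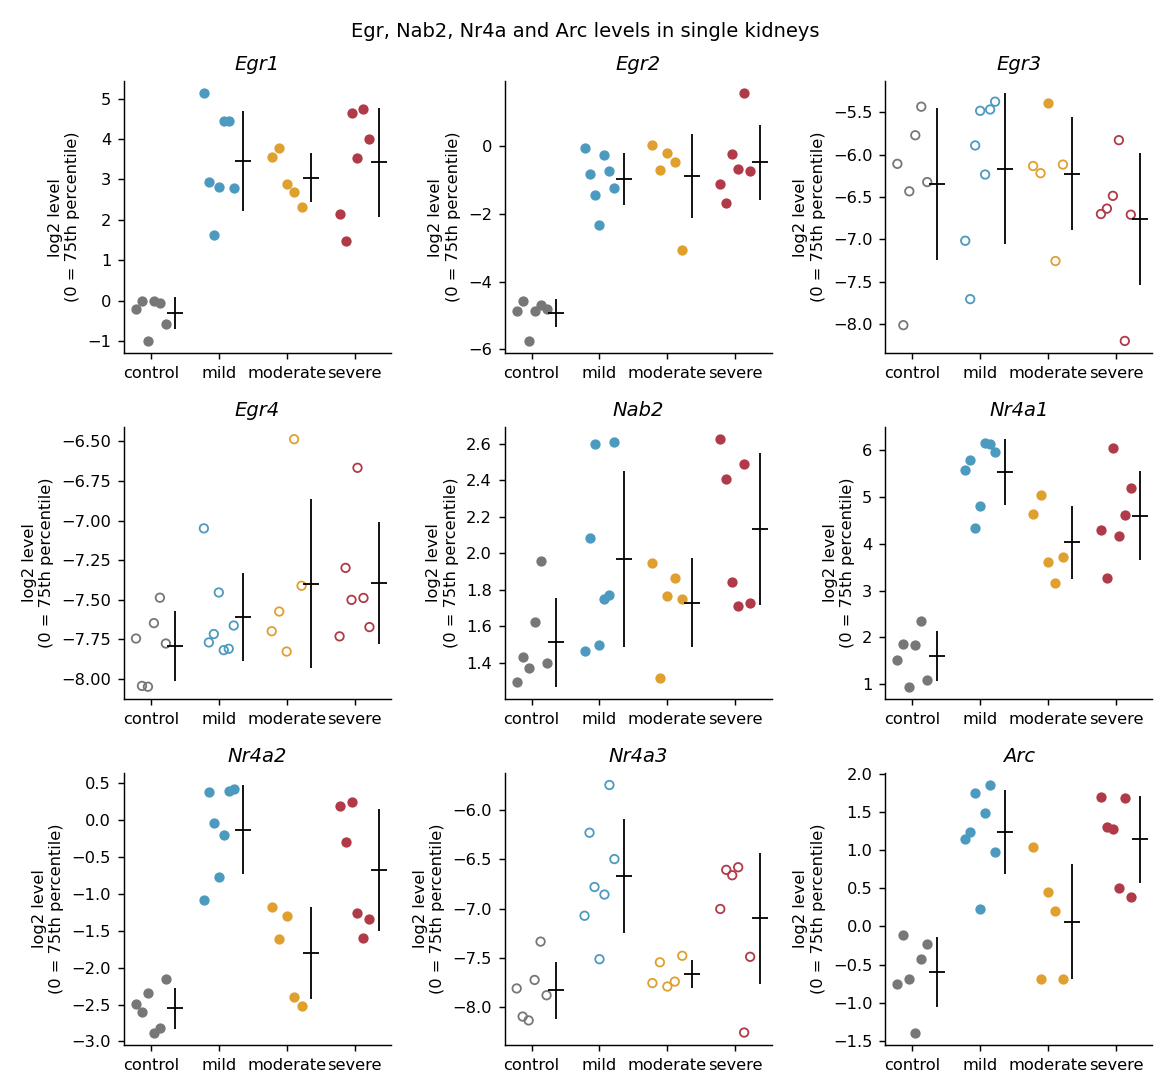
Level of each of the 9 genes in every kidney (log2 processed signal, 0 at the 75th percentile of the array) by group, with open circles where the spot was not well above background and the mean ± SD of each group as a black bar. Egr1, Egr2 and Nr4a1 have no overlap between control and mgb-/- kidneys, whereas Nr4a2 and Arc overlap only in the moderate group and Nab2 in every grade.

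Egr1, the founding member of its family, lay between -0.99 and 0.0029 in the 6 control kidneys, with a median of -0.13. In mild kidneys the lowest level was 1.62, the median 2.93 and the highest 5.13. The 5 moderate kidneys read 3.56, 3.79, 2.88, 2.70 and 2.32. Severe kidneys ranged from 1.47 to 4.73, with a median of 3.76. The lowest mgb-/- kidney was severe, and it was still more than 1 log2 unit above the highest control. Against controls Egr1 had a log2 change of 3.64 (SE 0.44, adjusted p = 6.01e-05), a 12.4-fold difference that placed 10th of all features by p. Within the 3 slides the difference was 3.19, 3.84 and 3.88.

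Egr2, known from hindbrain patterning and from myelinating Schwann cells, was separated from controls in every mgb-/- kidney. Control kidneys lay between -5.76 and -4.57, with a median of -4.84. Mild kidneys ranged from -2.33 to -0.06 around a median of -0.82. The moderate kidneys were at 0.03, -0.71, -0.19, -0.46 and -3.06. Severe kidneys reached from -1.67 to 1.57, with a median of -0.70. Moderate replicate 5 was the lowest of the mgb-/- kidneys and replicate 3 the lowest of the controls. The log2 change was 4.15 (SE 0.41, adjusted p = 2.56e-06), 4th of all features by p and 4th by the size of the rise. The smaller changes in the authors' normalized table and with normexp on the median signal had adjusted p = 5.21e-05 and 2.44e-04, and Egr2 was called under every alternative.

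Nab2, the corepressor, was measured on every array and had the smallest change of the 6. Control kidneys lay between 1.30 and 1.96, around a median of 1.42. The range was 1.47 to 2.61 in mild and 1.71 to 2.63 in severe kidneys, with medians of 1.77 and 2.13, and the moderate kidneys were at 1.95, 1.32, 1.77, 1.87 and 1.75. All 3 grades overlapped the controls, and 6 of 18 mgb-/- kidneys lay above every control. The log2 change was 0.45 (SE 0.18, adjusted p = 0.0981). In limma with array quality weights it was 0.51 (adjusted p = 0.00669), still under 2-fold, and with median scaling 0.29 (adjusted p = 0.370). The second, dimmer probe of Nab2 gave 0.32 (SE 0.21). In severe against control kidneys the change of Nab2 was 0.62 (SE 0.21, adjusted p = 0.0497), under 2-fold. At an adjusted p under 0.05, 6.48% of all features were higher there. Without the 2 kidneys high in adrenal markers the adjusted p of Nab2 was 0.0525. Set against each other, Egr1 rose by 3.19 log2 units more than Nab2, in the same direction in 18 of 18 mgb-/- kidneys (exact permutation test, two-sided, p = 7.43e-06, the smallest that 134596 regroupings can give, 2.97e-05 adjusted over 4 pairs).

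Nr4a1, the receptor also called Nur77, lay between 0.95 and 2.35 in control kidneys, with a median of 1.68. Mild kidneys were highest, from 4.35 to 6.15 around a median of 5.78. The moderate kidneys read 4.64, 5.04, 3.60, 3.17 and 3.72, and the severe ones ran from 3.27 to 6.05 with a median of 4.46. No mgb-/- kidney reached down to the controls. For mgb-/- against control kidneys Nr4a1 had a log2 change of 3.20 (SE 0.41, adjusted p = 1.02e-04), a 9.21-fold difference and 15th of all features by p.

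Nr4a2, called Nurr1 and known for dopaminergic neurons, ranged from -2.88 to -2.16 in controls with a median of -2.55. Levels in mild kidneys ran from -1.09 to 0.42 around -0.04, and in severe kidneys from -1.60 to 0.25 around -0.78. The moderate kidneys were at -1.17, -1.61, -1.31, -2.39 and -2.52. Moderate replicates 4 and 5 lay inside the control range, and the other 16 mgb-/- kidneys lay above it. The log2 change was 1.77 (SE 0.38, adjusted p = 0.00585), or 3.42-fold, and a second probe gave 1.73 (SE 0.40). Nr4a1 rose by 1.43 log2 units more than Nr4a2 (exact permutation test, two-sided, p = 0.00197, 0.00394 adjusted over 4 pairs, above the control mean in 16 of 18 kidneys). The rise of Egr1 over that of Nr4a1 was 0.43 (exact permutation p = 0.259, unchanged by adjustment).

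Nr4a3, the remaining family member, had a probe with 10 spots that was well above background on 0 of 24 arrays. Its signal lay between -8.14 and -7.33 in controls, -7.51 and -5.74 in mild, -7.79 and -7.48 in moderate and -8.26 and -6.58 in severe kidneys. With no filter on dim probes it was called in mild kidneys alone among the comparisons with controls. Egr3 and Egr4 signals overlapped the controls in every grade. These 3 genes are listed here as not well above background, not as absent.

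Arc lay between -1.39 and -0.12 in controls with a median of -0.55. Mild kidneys ranged from 0.23 to 1.85 around 1.23, and severe ones from 0.38 to 1.69 around 1.29. The moderate kidneys were at 1.04, -0.69, 0.45, 0.20 and -0.69, so replicates 2 and 5 fell among the controls. The log2 change was 1.48 (SE 0.33, adjusted p = 0.00667), 2.79-fold. Neuron markers, 4 of 4 measured, were not called, and their summed level was 4.96 to 14.9 in control, 4.47 to 49.7 in mild, 3.16 to 25.5 in moderate and 4.56 to 33.8 in severe kidneys. Of these markers Snap25, Rbfox3 and Syt1 were well above background on every array and Tubb3 on 18 of 24, and their part in the Arc result was not tested.

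The Egr and Nr4a genes were then read by grade of hydronephrosis. Mild kidneys showed 5 of 6 tested genes called higher (1.14% of all features called higher and 1.06% lower), moderate kidneys 3 of 6 (0.515% and 0.2%) and severe kidneys 5 of 6 (2.99% and 1.72%). The same genes lay above every control kidney in every kidney of the grade, as did 3.02% of all features for the mild grade, 1.31% for the moderate and 2.82% for the severe. Egr2 differed from controls by 3.95 (mild), 4.05 (moderate) and 4.46 (severe) on the log2 scale, and Egr1 by 3.76, 3.35 and 3.73. Nr4a1 differed by 3.93, 2.43 and 3.00. Nr4a2 was 2.42 higher in mild and 1.87 in severe kidneys, and its change in moderate kidneys, 0.75 (SE 0.36, adjusted p = 0.267), was not called. Arc showed 1.84, 0.66 and 1.74, with adjusted p = 0.302 in the moderate group. The moderate calls of Egr1 and Nr4a1 had adjusted p = 0.0142 and 0.0147 in limma. Without moderate replicate 1 only Egr2 was called, with Egr1 at 3.23 (adjusted p = 0.0552) and Nr4a1 at 2.28 (adjusted p = 0.0587). Leaving out any other single kidney kept both called. Over all single kidneys left out, Egr1 ranged from 3.17 to 3.54 and Nr4a1 from 2.18 to 2.65. Without the 2 kidneys high in adrenal markers, of which moderate replicate 1 is 1, Egr1 and Nr4a1 both had an adjusted p of 0.0605 in moderate kidneys.

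**Figure D2:**
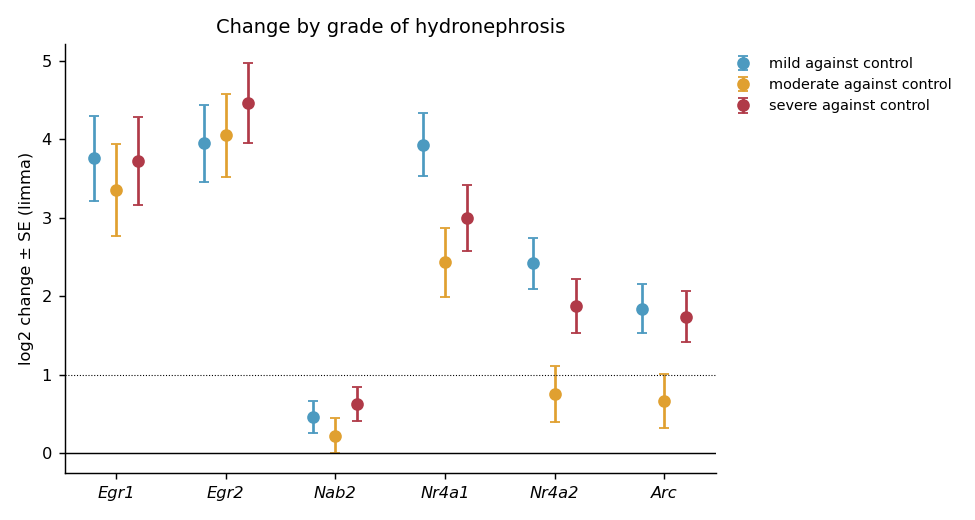
Log2 change of the 6 tested genes against the 6 control kidneys for each grade, with the limma SE as bars and a dotted line at 2-fold. Egr1 and Egr2 lie above 3 in every grade, and Nr4a1, Nr4a2 and Arc are lowest in moderate kidneys, where Nr4a2 and Arc fall below the dotted line.

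The grades share the same controls, so they were also compared directly. Moderate minus mild kidneys gave log2 differences of -1.67 for Nr4a2 (SE 0.35), -1.50 for Nr4a1 (SE 0.42) and -1.17 for Arc (SE 0.33). None passed, with adjusted p = 0.511, 0.515 and 0.515 in limma, although all 3 had an unadjusted p under 0.05 and Nr4a2 placed 4th of all features by p. No feature was called between moderate and mild kidneys, 0% in each direction, while 281 higher and 138 lower had an unadjusted p under 0.05 at 2-fold or more. Array quality weights alone called Nr4a2 here (-1.68, adjusted p = 0.0166). Severe and mild kidneys had 0 of 6 genes called (0.454% of features higher, 0.00715% lower). Nr4a1 had the smallest p of the 6, at -0.94 (SE 0.40, adjusted p = 0.399 in limma), and placed 2045th of all features by p. Between severe and moderate kidneys 0 of 6 were called (0.00358% in each direction). Nr4a2 differed by 1.12 (SE 0.36, adjusted p = 0.304) and Arc by 1.08 (SE 0.34, adjusted p = 0.298) in limma. They placed 441st and 421st of all features by p. A difference of 2 SE either way of the estimate spanned -1.12 to 1.05 for Egr1 and -0.47 to 1.49 for Egr2 between severe and mild kidneys, which leaves room for more than 2-fold. The slope per grade over the 18 mgb-/- kidneys called 0 of 6 genes (0.232% of features higher, 0% lower), and 0 had an unadjusted p under 0.05. Nr4a1 had a slope of -0.49 (SE 0.24, adjusted p = 0.609). Summed over 6 urothelial markers, the controls lay between 6.33 and 18.9 (median 12.9). The mild grade had a median of 17.7 and a lowest kidney at 5.26, the moderate grade ran from 14.2 to 56.2 (median 44.3), and severe kidneys, from 71.8 to 240.2 (median 105.4), lay above every other kidney. On the slope, 4 of these 6 markers were called. The 4 smooth muscle markers summed to medians of 7.83 in the controls, 13.0 at the mild, 35.0 at the moderate and 25.4 at the severe grade. The ranges were 6.34 to 14.1, 8.56 to 22.2, 6.91 to 41.9 and 15.2 to 49.5. Acta2, smooth muscle actin, had the largest signal in this sum. It was the 1 called in mgb-/- against control kidneys (2.30-fold, adjusted p = 0.0227 in limma). In severe against control kidneys 2 of the 4 were called higher (2.99% of all features). Mean log2 levels of Acta2 were 2.73, 3.38, 4.25 and 4.33 in control, mild, moderate and severe kidneys. Those of Myh11, another of the 4, were -0.94, -0.40, -0.02 and -0.94. Leukocyte markers, 6 of 7 measured, lay between 8.50 and 20.1 in the controls and had medians of 12.8, 24.3 and 11.9 by grade, and limma called 0 of them in any comparison, with at most 1 at an unadjusted p under 0.05. Their part in the levels of Egr and Nr4a genes was not tested.

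Among the 18 mgb-/- kidneys 4 pairs of these genes were compared, and 3 of them varied together. Egr1 and Egr2 had Pearson r = 0.66 and Spearman rho = 0.73 (permutation p = 0.00169 and 9.70e-04, adjusted 0.00676 and 0.00388), and r was 0.64 without the 2 kidneys farthest from the median of Egr1. Within the 3 slides, 6 kidneys each, r was 0.65, 0.87 and 0.57. Egr1 and Nr4a1 had r = 0.64 and rho = 0.64 (permutation p = 0.00488 and 0.00530, adjusted 0.00976 and 0.0106), 0.56 without the 2 farthest kidneys and 0.61, 0.53 and 0.67 within slides. Nr4a1 and Nr4a2 had r = 0.60 and rho = 0.59 (permutation p = 0.0102 and 0.0123, adjusted 0.0135 and 0.0164), 0.63 without the 2 farthest and 0.54, 0.94 and 0.45 within slides. Both genes were lowest in moderate kidneys. Mean levels in mild, moderate and severe kidneys were 5.54, 4.03 and 4.60 for Nr4a1 and -0.13, -1.80 and -0.68 for Nr4a2. Grade means were not removed from the correlation of any pair, so differences shared between grades can be part of it. Egr1 and Nab2 ran the other way, at r = -0.49 and rho = -0.43 (permutation p = 0.0408 and 0.0760, unchanged by adjustment). That relation depended on the setting: r was -0.35 (permutation p = 0.180) without the 2 farthest kidneys, and within slides it was -0.63, 0.25 and -0.86. Over the alternatives run, r stayed negative, with an adjusted permutation p under 0.05 in 11 and not in 14.

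**Figure D3:**
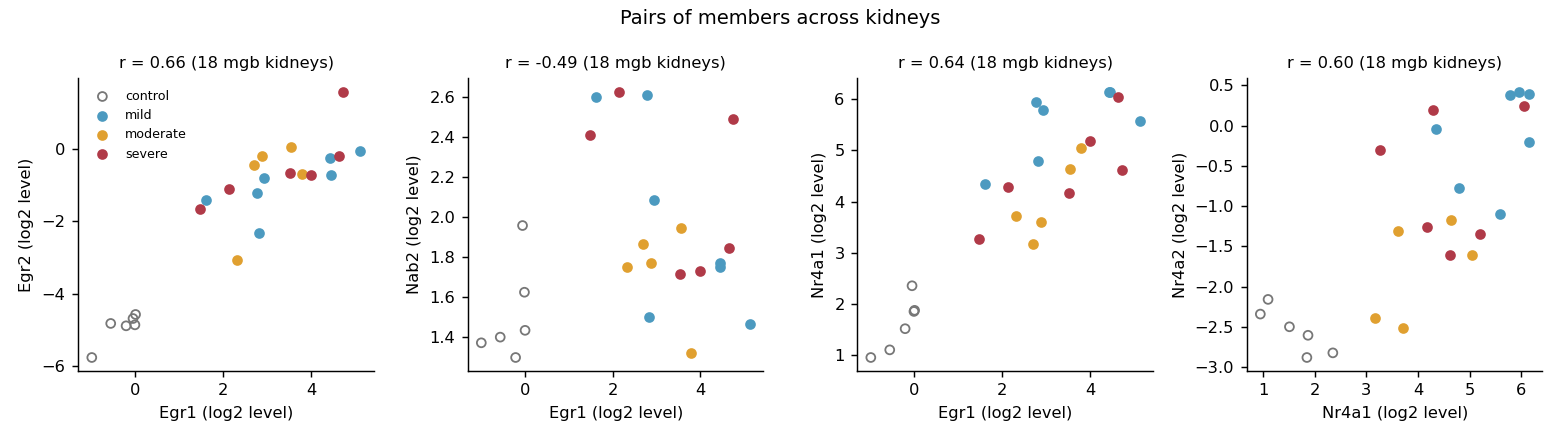
Levels of 4 pairs of genes in each kidney (log2 processed signal, 0 at the 75th percentile), control kidneys as open circles and mgb-/- kidneys filled by grade, with Pearson r over the 18 mgb-/- kidneys above each panel. Egr1 with Egr2, Egr1 with Nr4a1, and Nr4a1 with Nr4a2 slope upward at r of 0.60 to 0.66, and Egr1 with Nab2 slopes downward at -0.49.

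The genes whose levels followed Egr1 most closely, ranked over 20923 genes well above background on every array and the 18 mgb-/- kidneys, were Ier2 (r = 0.94), Zfp36 (0.91), Junb (0.89), Btg2 (0.88) and Jun (0.86). All 5 are themselves immediate early genes: Junb and Jun are AP-1 subunits, Zfp36 is an mRNA decay factor and Btg2 an antiproliferative protein. Nr4a1 was followed less closely, by Slc25a25, a mitochondrial ATP-Mg/phosphate carrier (r = 0.77), Prmt6, an arginine methyltransferase (0.77), Plk3, a stress-responsive kinase (0.77), Snhg16, a small nucleolar RNA host gene (0.77), and a transcript without a gene name (0.76). These values rank genes over the same kidneys and arrays and carry no test.

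Among other immediate early genes, of 26 listed, 17 were called higher in mgb-/- kidneys and 0 lower (1.82% and 1.27% of all features), with a median log2 change of 1.39 against 0.01 over all features. The smallest p belonged to Btg2 at 2.20 (SE 0.26, adjusted p = 3.71e-05), the phosphatase gene Dusp1 at 1.51 (SE 0.19) and Ptgs2, which encodes cyclooxygenase-2, at 3.19 (SE 0.42). By grade, 15 were called higher at the mild grade (1.14% of all features), 7 at the moderate (0.515%) and 18 at the severe (2.99%).

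Factors that drive the Egr and Nr4a promoters were listed too. Of 13 upstream regulators, 0 were called in limma, 3 had an unadjusted p under 0.05, and the median log2 change was 0.11. Those 3 also had an adjusted p under 0.05, where 5.22% of all features were higher at that level: Srf, serum response factor itself, at 0.66 (SE 0.17), its partner Elk4 at 0.41 (SE 0.09) and its coactivator Mrtfb at 0.36 (SE 0.09), named after their values were seen. Of the 4 partners, Nab1, the other Egr corepressor, changed by 0.05 (SE 0.09). The retinoid X receptors that pair with Nr4a1 and Nr4a2 differed by -0.40 for Rxra (SE 0.19, adjusted p = 0.157), -0.40 for Rxrb (SE 0.09, adjusted p = 0.00709) and -0.17 for Rxrg (SE 0.12, adjusted p = 0.378). Rxrb alone of the 4 had an adjusted p under 0.05, at less than 2-fold, and 7.90% of all features were lower at that level.

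Of 16 genes listed as Egr targets, 4 were called higher and 0 lower, against 1.82% and 1.27% of all features, with a median log2 change of 0.33. Among them were the membrane metalloproteinase gene Mmp14 at 1.01 (SE 0.32, adjusted p = 0.0395) and Fgf2, a fibroblast growth factor, at 1.04 (SE 0.35, adjusted p = 0.0498), the last named after its value was seen. Of 10 Nr4a targets 1 was called higher, again beside 1.82% of all features. It was Spp1, which encodes osteopontin, at 1.06 (SE 0.35, adjusted p = 0.0450), and the median was 0.27. Star and Cyp21a1, listed also as adrenal markers, showed 1.83 (SE 1.07) and 2.32 (SE 1.25) and were not called. Of 7 genes known from neuronal activity, 6 were tested and 0 called, with 5 at an unadjusted p under 0.05, 3 higher and 2 lower, where 3399 features were higher and 4671 lower of 27959 at that level.

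**Figure D4:**
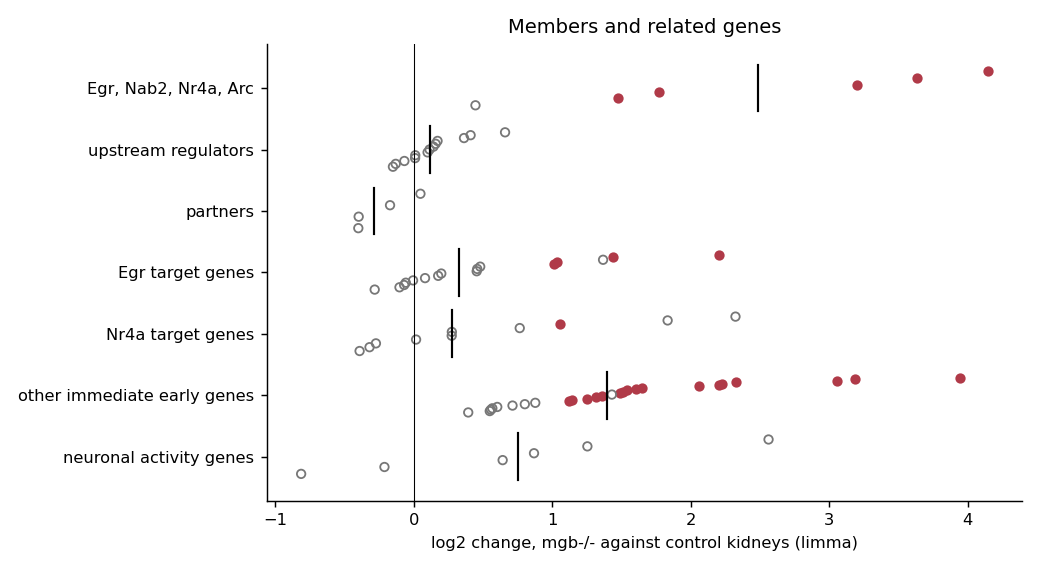
Log2 change of each tested gene in mgb-/- against control kidneys, by list, with called genes filled in red, others open and the list median as a black line. The Egr and Nr4a genes and the other immediate early genes have medians of 2.49 and 1.39, and the medians of the other 5 lists plotted lie below 1.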

How the data were processed

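The authors deposited the Agilent Feature Extraction 10.10 output of each of 24 arrays, whose processed signal is an intensity with background subtracted and without scaling between arrays. The authors also deposited a table of intensity values normalized between arrays, used as an alternative; its method is not given in the sources used here. The log2 of the processed signal was taken and the array's 75th percentile subtracted. Spots flagged as outliers were left out, spots of a probe were averaged, a probe was kept (38838 of 55681) if 5 or more arrays had it well above background, and the brightest probe stood for a gene. The files hold no gene names; 26762 probes were named through RefSeq accessions (GRCm38.p6) and 28919 were not. R 4.3.3 and limma 3.58.1 served for the comparisons, in 2 groups or in 4 groups that share 1 spread, and tested on simulated data. Differences between genes used exact permutation tests and correlations 100000 resamples, in Python 3.11.15 with scipy 1.17.1. Groups, replicate numbers and grades came from the labels. The number of arrays limits the precision.

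The text names the 9 members, per pathway list the 3 called genes with the smallest p and every gene of a list of 5 or fewer, and the 5 genes most correlated with Egr1 and with Nr4a1. Members and lists were chosen with earlier results of these data known. Lists were upstream regulators, partners, Egr targets, Nr4a targets, other immediate early genes, neuronal activity genes, and markers of nephron and collecting duct, urothelium, smooth muscle, leukocytes, adrenal gland and neurons. Alternatives were quantile and median scaling, normexp (offset 50, on the median signal), the authors' table, the mean of probes, other filters, thresholds, array weights, the slide or replicate number as a block, and leaving out each kidney. Some genes that this rule takes in are counted but not reported here by name.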

Additional observations from a re-analysis of the deposited data

Results flagged for a closer look

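Of 24 groups of kidneys tested for a value far from the others, over the 6 genes tested in 4 groups, 2 had one, where chance gives about 1 in 20 groups. Both were Egr2. Control replicate 3 was at -5.76, with its nearest neighbour at -4.88, a gap of 0.736 of the group's range. Moderate replicate 5 was at -3.06 and its neighbour at -0.71, a gap of 0.760 of the range. Leaving out any 1 kidney kept Egr2 called, with log2 changes from 3.98 to 4.28 against controls.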

How the results depend on the processing

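The 5 genes called in mgb-/- against control kidneys were called under every alternative run, likewise in mild kidneys, where Nr4a3 joined them without the filter, and in severe kidneys, where Nab2 joined them with no fold minimum. The moderate group's count fell from 3 to 1 without the 2 kidneys high in adrenal markers, an alternative chosen after seeing the data, and ranged from 1 to 3 when single kidneys were left out, with moderate replicate 1 giving 1. Array quality weights raised the count for moderate against mild kidneys from 0 to 1. The Egr1 rise minus that of Egr2 was -0.51, and it turned to 1.21 (adjusted p = 0.00146) after normexp and to 0.75 (adjusted p = 0.0410) in the authors' table. The cause was not tested, and the order of Egr1 and Egr2 depends on the setting. The correlation of Egr1 with Nab2 lost its p under 0.05 with the mean of probes (-0.44), normexp (-0.41), quantile scaling (-0.40), median scaling (-0.32) and the authors' table (-0.41), and it ranged from -0.66 to -0.40 without single kidneys.

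Differences that were not called changed sign at values near 0. Egr1 in severe against mild kidneys was 0.079 after normexp, 0.042 with quantile scaling and 0.083 in the authors' table, and -0.34 to 0.36 without single kidneys. Its slope on grade was 0.030, 0.012 and 0.032 under the same settings, and -0.17 to 0.15 without single kidneys. Egr2 in moderate against mild kidneys was -0.35 without the 2 kidneys high in adrenal markers and -0.13 to 0.65 without single kidneys, and in severe against moderate kidneys -0.076 with array weights and -0.14 to 0.65 without single kidneys. Arc ranged from -0.27 to 0.052 in severe against mild kidneys and from -0.16 to 0.0013 on the slope.

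The labels do not say whether replicate numbers pair the kidneys, and no pairing was seen over all numbers together. Over 33 pairs of kidneys that share a number, the correlation of their deviations ran from -0.55 to 0.65 with a median of 0.0040, and 10 pairs were over 0.1. For replicate 1 it was 0.60 between control and mild, 0.56 between control and severe and 0.65 between mild and severe. With moderate replicate 1 it was -0.00087 for control, -0.16 for mild and -0.11 for severe. A pairing of some kidneys is therefore not excluded. With the number as a block the moderate group's count was 1, with Egr1 at 3.43 (adjusted p = 0.0523) and Nr4a1 at 2.48 (adjusted p = 0.0536), and no other count of these genes changed. The number of kidneys and, for Egr3, Egr4 and Nr4a3, the signal over background limit what can be seen here.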
